A study of Mus musculus with 12 samples.

Results

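Nonhomologous end joining rejoins broken DNA ends without a template. The Ku heterodimer of KU70 (*Xrcc6*) and KU80 (*Xrcc5*) grips the ends and recruits the kinase DNA-PKcs (*Prkdc*), the nuclease Artemis (*Dclre1c*) opens and trims them, and the complex of XRCC4, DNA ligase IV (*Lig4*) and XLF (*Nhej1*) seals them. 53BP1 (*Trp53bp1*) and its effector RIF1 protect ends from resection and so favor end joining over homologous recombination, the pathway that needs BRCA2. In the developing mouse brain, loss of *Lig4* or *Xrcc4* together with p53 is known to give medulloblastoma. These 9 genes were described across all samples. They were taken by gene symbol, and each matched 1 of the 24091 genes of the expression table.

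The samples were 12 mouse tissues in 4 groups of 3, profiled by RNA sequencing. The tumors were medulloblastomas of Brca2-mut;Trp53-mut mice GB344, GB359 and GB370, and the adjacent group was the cerebellum beside the tumor in the same 3 mice. The controls were cerebella of 3 Brca2-mut;Trp53-WT mice (GB361, GB508 and GB512) and of 3 Brca2-WT;Trp53-mut mice (GB517, GB519 and GB520), pooled as 6 control cerebella where stated. Brca2-mut is a deletion of exons 3 and 4 made by Cre under the human GFAP promoter, so in the developing nervous system only, whereas Trp53-mut is a germline knockout. No group carried both wild-type alleles, and each group held 3 mice, which were the replicates. Values are TPM (transcript abundance scaled to transcript length and to a fixed total per library), and the read depth behind them is unknown.

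Tumor and control tissue differed broadly in makeup. All 11 proliferation genes and all 5 granule neuron progenitor genes examined were called higher in tumors, and all 6 granule neuron, 5 Purkinje cell and 6 oligodendrocyte markers were called lower. The summed level of the 11 proliferation genes was 1525 to 1737 TPM in tumors and 109 to 188 TPM in control cerebella. Adjacent cerebellum was not uniform: that sum was 683 TPM in GB344, 494 TPM in GB359 and 153 TPM in GB370, and the summed progenitor genes had the same order, at 561, 523 and 84.03 TPM against 38.4 to 46.9 TPM in controls. The 5 summed lymphocyte markers were 26.6 to 49.8 TPM in tumors and 6.15 to 11.3 TPM in controls. Only 2 of the 5 were expressed enough to test, and 1 was called higher. In bulk tissue, more cells of a type and more RNA per cell cannot be told apart. The part of these markers in the results below was not tested.

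All 9 genes were detected in every sample. In the 6 control cerebella, *Rif1* (51.5 TPM ± 8.6, SD, n = 6) and *Trp53bp1* (47.2 ± 4.65 TPM) were highest, with overlapping ranges. *Xrcc6* (28.2 ± 2.09 TPM) and *Xrcc5* (15.6 ± 1.06 TPM) came next and stood apart from each other, but the range of *Xrcc5* overlapped that of *Prkdc*. *Prkdc* (12.9 ± 2.31 TPM), *Xrcc4* (10.6 ± 0.86 TPM), *Dclre1c* (8.25 ± 1.42 TPM) and *Lig4* (7.90 ± 0.36 TPM) each overlapped their neighbor in the order, and *Nhej1* (6.17 ± 0.53 TPM) was lowest. In tumors the order changed at the top. *Xrcc5* was the highest of the 9 (61.3 ± 3.16 TPM, n = 3), above *Trp53bp1* (55.8 ± 2.56 TPM) without overlap, and *Xrcc4* was the lowest (6.37 ± 0.25 TPM), although its range overlapped that of *Lig4*. The 9 genes summed to 250 ± 24.9 TPM in tumors and 188 ± 16.6 TPM in controls, of which *Xrcc5* made up 24.7% ± 2.33 and 8.35% ± 1.09.

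**Figure D1:**
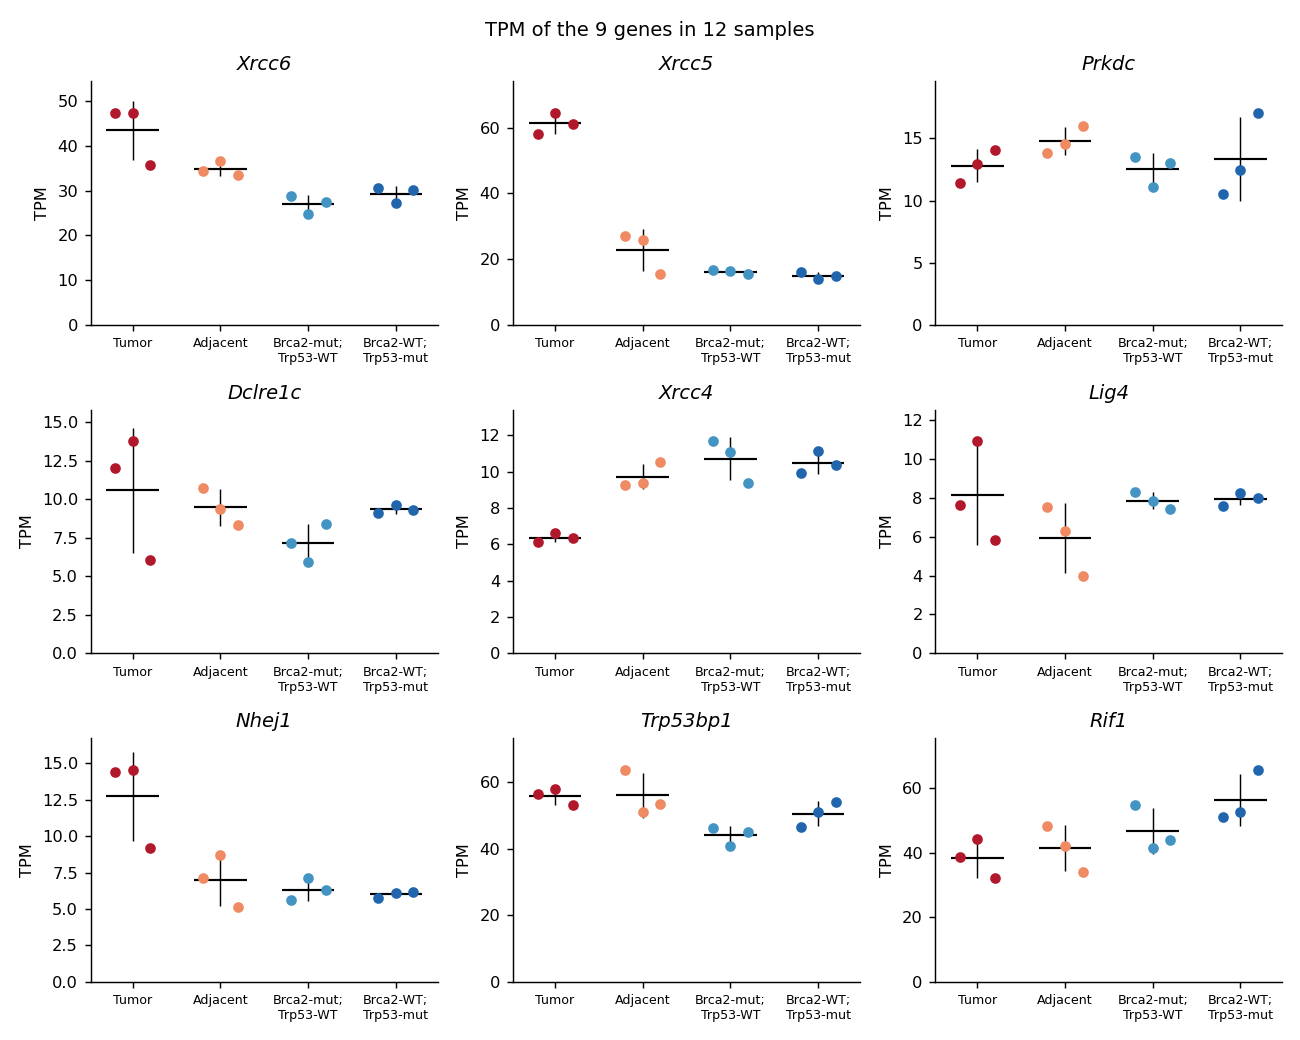
TPM (vertical axes, from 0) of the 9 genes in the 4 groups; each point is 1 mouse, ordered by mouse number within a group, with the mean (horizontal line) and SD (vertical line) of 3 mice. *Xrcc5* lies at 58.2 to 64.5 TPM in tumors and at 14.0 to 16.8 TPM in the 6 control cerebella, and *Xrcc4* is the gene with all tumors below all other samples.

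To ask how end-joining expression differed between tumors and tumor-free cerebellum, tumors were compared with the 6 control cerebella. A gene was called where limma's test on log2(TPM + 1) gave a Benjamini-Hochberg adjusted p under 0.01 over 16241 genes and a change of at least 2-fold, the thresholds of the study. A second threshold of an adjusted p under 0.05 with no minimum fold is given beside it. By the first rule 1 of the 9 genes, *Xrcc5*, was called higher and 0 lower, where 14.4% of all tested genes were called higher and 21.5% lower. By the second, 4 were higher and 2 lower, against 31.8% and 39.5% of all genes. No count among the 9 stood far above its background. The median log2 fold change of the 9 was 0.24, beside a median of -0.11 over all tested genes.

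Both Ku genes were higher in tumors, *Xrcc5* by the first rule and *Xrcc6* by the second. *Xrcc5* measured 58.2, 64.5 and 61.1 TPM in tumors of GB344, GB359 and GB370, against 14.0 to 16.8 TPM (median 15.8) in control cerebella. The 2 ranges are far apart, and the ratio of mean TPM was 3.93. On the log2(TPM + 1) scale the fold change was 1.91 ± 0.09 (SE, adjusted p = 3.28e-08 by limma), and it was 1.86 against Brca2-mut;Trp53-WT and 1.96 against Brca2-WT;Trp53-mut cerebella alone. Among the 945 tested genes of chromosome 1, 94.4% had a lower fold change. *Xrcc6*, its partner, measured 47.3, 47.4 and 35.8 TPM in tumors against 24.9 to 30.6 TPM (median 28.2) in controls. Tumor GB370 was the lowest of the 3, and the groups did not overlap. Its log2 fold change was 0.60 ± 0.11 (adjusted p = 0.000605), which passed the second threshold but not 2-fold.

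*Prkdc* did not separate the groups. It measured 11.4, 12.97 and 14.05 TPM in tumors and 10.6 to 17.1 TPM in control cerebella, a log2 fold change of -0.00 ± 0.15 with a 95% confidence interval from -0.33 to 0.32. *Dclre1c* was uneven among tumors, at 11.99, 13.8 and 6.02 TPM, against 5.94 to 9.62 TPM in controls. Tumor GB370 fell at the bottom of the control range while the other tumors lay above it. With all samples its log2 fold change was 0.27 ± 0.23 (adjusted p = 0.317). Without GB370 it was 0.60 (adjusted p = 0.0145), which passed the second threshold.

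Of the 3 ligation genes, *Nhej1* was higher and *Xrcc4* lower in tumors by the second threshold, and *Lig4* passed neither. *Nhej1* measured 14.4, 14.6 and 9.19 TPM in tumors against 5.60 to 7.11 TPM (median 6.13) in controls, with tumor GB370 again the lowest but above every control. Its log2 fold change of 0.91 ± 0.15 (adjusted p = 0.000301) fell just short of 2-fold. It passed 2-fold without tumor GB370 (1.11), with a pseudocount of 0.1 (1.01) and under median-of-ratios (1.02) and quantile (1.10) scaling. *Xrcc4* measured 6.13, 6.63 and 6.34 TPM in tumors against 9.39 to 11.7 TPM (median 10.7) in controls. The tumors were tightly grouped, below every control. This was a log2 fold change of -0.65 ± 0.10 (adjusted p = 0.000229), past the second threshold here and in all 19 alternatives tried. *Lig4*, which needs XRCC4 for its stability, measured 7.61, 10.9 and 5.83 TPM in tumors and 7.42 to 8.31 TPM in controls. The tumors spread on both sides of the narrow control range, and the log2 fold change was -0.00 (95% confidence interval -0.35 to 0.35).

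Both genes of the 53BP1 axis passed the second threshold by a small margin, in opposite directions. *Trp53bp1* measured 56.3, 58.04 and 53.02 TPM in tumors and 40.7 to 54.0 TPM (median 46.4) in controls, so that 1 tumor lay within the control range. Its log2 fold change of 0.24 ± 0.09 (adjusted p = 0.0405) passed in 11 of 19 alternatives. *Rif1* measured 38.7, 44.3 and 32.0 TPM in tumors and 41.4 to 65.6 TPM (median 51.7) in controls, also with overlap. Its log2 fold change of -0.41 ± 0.15 (adjusted p = 0.0299) passed in 13 of 19 alternatives. Against Brca2-WT;Trp53-mut cerebella alone *Trp53bp1* was at 0.14 (adjusted p = 0.233), and it also did not pass without tumor GB344, tumor GB359, control GB517 or any 1 of the 3 Brca2-mut;Trp53-WT cerebella, or without limma's variance trend. Against Brca2-mut;Trp53-WT cerebella alone *Rif1* was at -0.28 (adjusted p = 0.179), and it also did not pass without tumor GB344, tumor GB370, control GB361 or control GB519, or under quantile normalization.

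**Figure D2:**
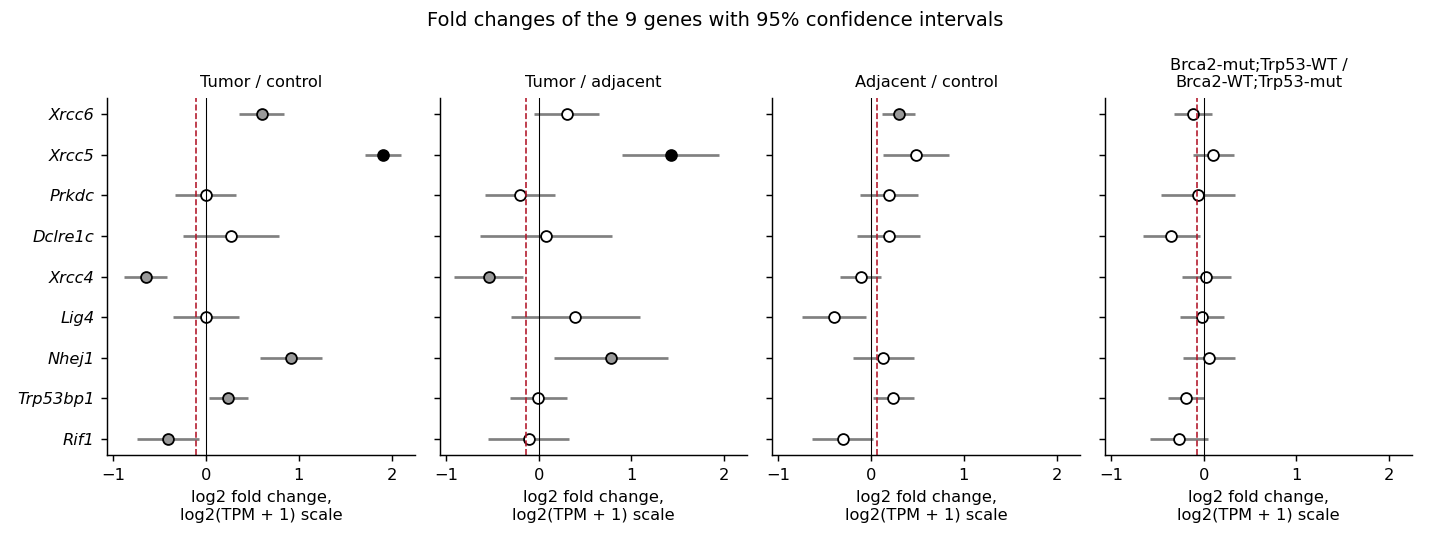
Log2 fold change on the log2(TPM + 1) scale (horizontal axes) of the 9 genes in 4 comparisons; bars are 95% confidence intervals, black points were called, grey points passed an adjusted p under 0.05 only, and open points passed neither. The dashed line is the median of all tested genes. *Xrcc5* is the 1 black point in each tumor comparison, at 1.91 and 1.43.

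Promoter sequence is shown for the 4 genes with the clearest difference between tumor and control, 3 higher and 1 lower. The windows are the 250 bases before a RefSeq start site (GRCm38.p6, the same assembly as mm10), 5′ to 3′ on the gene's strand. They are chr1:72307171-72307420 (plus strand) for *Xrcc5*, chr15:82016119-82016368 (plus) for *Xrcc6*, chr1:75125227-75125476 (minus) for *Nhej1* and chr13:90089609-90089858 (minus) for *Xrcc4*. The *Xrcc6* window lies inside the RefSeq span of that gene (chr15:81987833-82040085), so it does not precede the outermost start. Capitals mark matches on either strand to 7 letter strings. The E2F site was searched in its forms TTTCCCGC and TTTGGCGC. The CHR element of cell cycle genes was searched as TTTGAA, and the CCAAT box by the letters of its name. For the GC box, which binds SP1, the string was GGGCGG. For the binding site of ETS factors it was CCGGAAG, and for the core of the site of the factor NRF1 it was CATGCGC.
Xrcc5: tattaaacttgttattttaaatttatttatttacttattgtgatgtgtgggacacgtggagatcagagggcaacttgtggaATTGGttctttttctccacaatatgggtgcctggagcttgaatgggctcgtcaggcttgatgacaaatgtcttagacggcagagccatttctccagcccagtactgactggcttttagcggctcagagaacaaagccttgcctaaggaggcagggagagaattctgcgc
Xrcc6: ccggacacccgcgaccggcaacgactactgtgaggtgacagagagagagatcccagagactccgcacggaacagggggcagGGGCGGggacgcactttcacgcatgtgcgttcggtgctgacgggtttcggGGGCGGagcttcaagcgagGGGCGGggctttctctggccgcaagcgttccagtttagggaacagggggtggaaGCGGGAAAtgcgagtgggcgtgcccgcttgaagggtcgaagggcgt
Nhej1: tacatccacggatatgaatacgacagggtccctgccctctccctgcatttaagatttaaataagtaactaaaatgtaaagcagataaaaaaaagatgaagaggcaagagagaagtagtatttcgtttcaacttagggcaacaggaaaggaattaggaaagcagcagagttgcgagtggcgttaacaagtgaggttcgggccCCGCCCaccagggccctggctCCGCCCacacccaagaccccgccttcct
Xrcc4: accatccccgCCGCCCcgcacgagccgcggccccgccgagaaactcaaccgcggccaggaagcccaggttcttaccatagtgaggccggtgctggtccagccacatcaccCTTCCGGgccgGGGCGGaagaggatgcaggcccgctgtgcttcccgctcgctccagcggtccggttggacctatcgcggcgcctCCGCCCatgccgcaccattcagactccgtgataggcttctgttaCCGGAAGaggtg
The *Xrcc5* window was the poorest in G and C (44.8%) and held 1 match, a CCAAT box, which 36.2% of 18038 promoter windows hold. The *Xrcc6* window (65.2% G and C) held 3 GC boxes, a string found in 43.1% of windows, and 1 E2F site of the first form, found in 1.23%. *Nhej1* (48.4% G and C) held 2 GC boxes. *Xrcc4* (68% G and C) held 3 GC boxes and 2 ETS sites, the latter string found in 9.1% of windows. No string was shared by the 3 higher genes, and neither the CHR element nor the second E2F form, found in 14.3% and 0.577% of windows, occurred in the windows of the 7 members with a promoter entry. The NRF1 core, found in 4.13% of windows, was in none of the 4 shown. No string contains another, and the same 250 bases were searched in all windows.

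Since Ku and the ligation complex work as assemblies, the ratio of partner genes was taken within each sample, which removes any scaling between libraries. The *Xrcc6* to *Xrcc5* ratio of TPM was 0.813, 0.735 and 0.587 in tumors and 1.52 to 2.04 in controls. KU70 transcripts thus exceeded KU80 transcripts in every control and fell short of them in every tumor. The difference of mean log2 ratios was -1.36 (exact two-sided permutation test, p = 0.0119, adjusted over the 3 ratios p = 0.0119). That p is the smallest that 3 against 6 samples can give. The *Lig4* to *Xrcc4* ratio was 1.24, 1.64 and 0.921 in tumors and 0.707 to 0.790 in controls, a log2 difference of 0.72 with the same exact permutation p = 0.0119. The *Rif1* to *Trp53bp1* ratio was 0.687, 0.763 and 0.604 in tumors and 0.973 to 1.22 in controls, a log2 difference of -0.67 (exact permutation p = 0.0119).

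**Figure D3:**
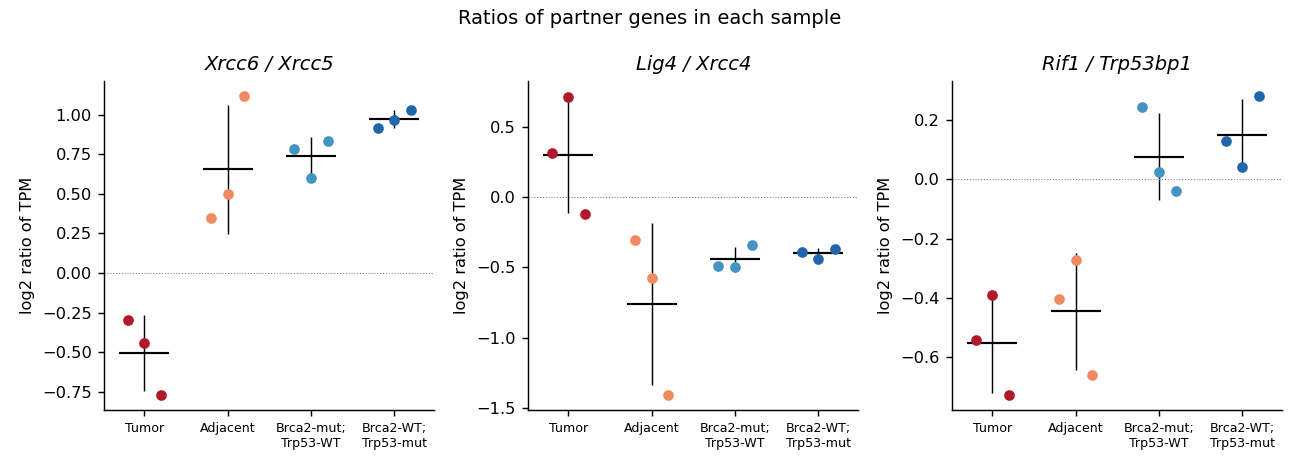
Log2 ratio of TPM (vertical axes) for 3 pairs of partner genes in the 4 groups; points are mice, lines the mean and SD of 3. For *Xrcc6* / *Xrcc5* all tumors lie below 0 and all other samples above it, and for *Rif1* / *Trp53bp1* tumor and adjacent samples both lie below the 6 controls.

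Each member was also set against the other genes of its chromosome. *Xrcc4*, the member that lay below every control in tumors, lies on chromosome 13 (chr13:89848914-90089608, RefSeq, GRCm38.p6). In tumors against controls, the 619 tested genes of chromosome 13 had a median log2 fold change of -0.38, the lowest of 19 autosomes, 0.27 below the median of all genes; chromosome 19 was next at -0.37. The chromosome 13 median lay below the all-gene median in each tumor, by 0.30 in GB344, 0.22 in GB359 and 0.25 in GB370. It also lay below in each adjacent cerebellum, by 0.12, 0.10 and 0.065. *Xrcc4* itself was 0.27 lower than its chromosome's median, and 38% of the chromosome's tested genes had a lower fold change. DNA copy number was not analysed here. The medians of the other chromosomes that hold members lay between -0.21 (chromosome 15, with *Xrcc6*) and 0.04 (chromosome 8, with *Lig4*).

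**Figure D4:**
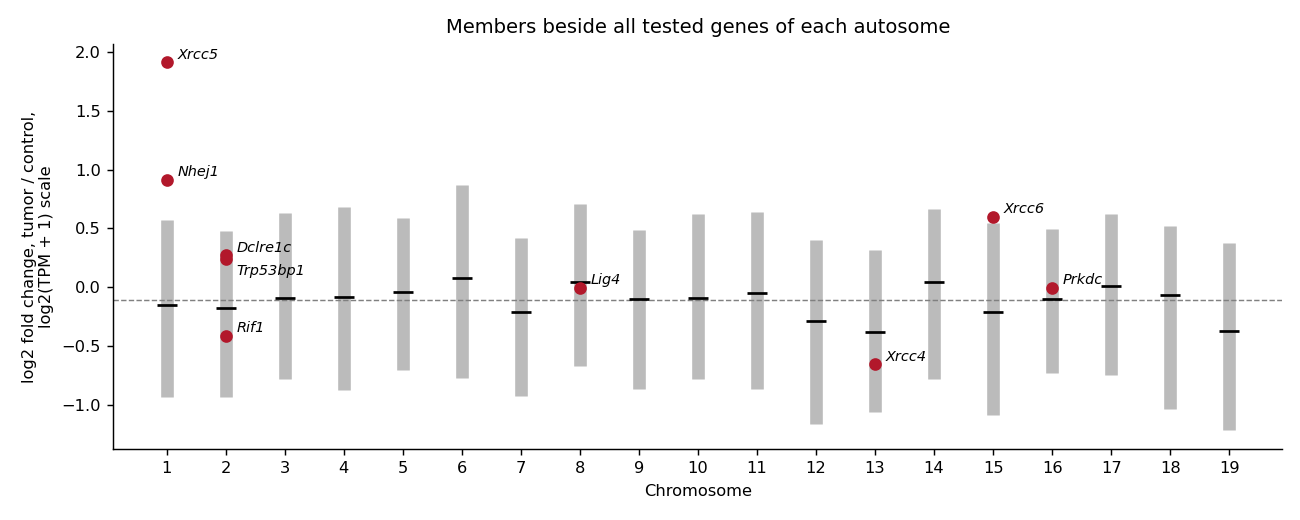
Log2 fold change of tumors against control cerebella (vertical axis, log2(TPM + 1) scale) by autosome (horizontal axis); black dashes are medians and grey bars the interquartile range of all tested genes, red points are the 9 members, and the dashed line is the median of all genes. *Xrcc5* and *Nhej1* lie above the bar of chromosome 1, and *Xrcc4* lies within that of chromosome 13.

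Tumors were next compared with adjacent cerebellum of the same mice. *Xrcc5* was the 1 gene of 9 called higher and 0 were called lower, beside 4.76% and 18.0% of 15845 tested genes. By the second threshold 2 were higher and 1 lower, against 18.1% and 32.2% of all genes. *Xrcc5* measured 27.1 TPM in the adjacent cerebellum of GB344, 25.9 TPM in GB359 and 15.4 TPM in GB370. Each was below every tumor, and only the first 2 of these were above every control. The log2 fold change of tumors over adjacent cerebellum was 1.43 ± 0.22 (adjusted p = 0.00242). The call was lost, at almost the same size, without tumor GB359 (1.39, adjusted p = 0.0106) or tumor GB370 (1.43, adjusted p = 0.0110). *Nhej1* was 7.10, 8.69 and 5.14 TPM in adjacent cerebellum, a log2 fold change of 0.78 ± 0.26 (adjusted p = 0.0413), and *Xrcc4* was 9.27, 9.37 and 10.5 TPM, a log2 fold change of -0.54 ± 0.16 (adjusted p = 0.0269). In both genes tumor and adjacent samples did not overlap, and the second threshold was passed in 10 of 16 alternatives by *Nhej1* and in 8 of 16 by *Xrcc4*. With 1 sample left out the log2 fold changes were 0.60 to 0.98 for *Nhej1* and -0.57 to -0.49 for *Xrcc4*, in fits with fewer samples. Another scaling made *Xrcc4* smaller, at -0.35 (adjusted p = 0.0977) with median-of-ratios scaling and -0.15 (adjusted p = 0.478) under quantile normalization.

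The other 6 genes did not pass in tumors against adjacent cerebellum. *Xrcc6* was 34.5, 36.7 and 33.5 TPM in adjacent cerebellum, overlapping the tumors, with a log2 fold change of 0.30 (95% confidence interval -0.05 to 0.66). It passed the second threshold under median-of-ratios scaling (0.51) and 3 other settings. *Lig4* was 7.51, 6.29 and 3.96 TPM in adjacent cerebellum, the last being the lowest of all samples. *Trp53bp1* was 63.7, 51.0 and 53.5 TPM and *Rif1* 48.1, 42.2 and 33.9 TPM, both overlapping the tumors. *Prkdc* was 13.8, 14.5 and 16.0 TPM and *Dclre1c* 10.7, 9.37 and 8.35 TPM. The *Xrcc6* to *Xrcc5* ratio was 1.27, 1.41 and 2.17 in adjacent cerebellum, above the tumor of the same mouse in 3 of 3 mice. The difference to tumors was -1.16 on the log2 scale (exact permutation p = 0.1, the smallest that 3 against 3 can give). That test took the samples as independent and did not use the pairing by mouse.

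Adjacent cerebellum was then set against the 6 control cerebella. These comparisons share the control and adjacent samples with those above. By limma 0 of the 9 genes were called in either direction, beside 0.224% higher and 0.0124% lower among 16091 tested genes. Without adjustment 4 of the 9 had p under 0.05, 3 higher and 1 lower, where 22.1% of all tested genes were higher and 12.4% lower. By the second threshold *Xrcc6* alone was higher and 0 genes lower, against 10.1% and 5.57% of all genes. The log2 fold change of *Xrcc6* was 0.30 ± 0.08 (adjusted p = 0.0355), with all 3 adjacent samples above all controls, but it passed in only 10 of 20 alternatives. *Xrcc5* had a log2 fold change of 0.48 ± 0.16 (adjusted p = 0.0632). Adjacent GB344 (27.1 TPM) and GB359 (25.9 TPM) lay above every control, and GB370 (15.4 TPM) lay within the control range. Without GB344 and GB359, which leaves 1 adjacent sample, the log2 fold change of *Xrcc5* was -0.01. Without adjacent GB370 it was 0.73 (adjusted p = 0.0009), past the second threshold. Summed proliferation genes were above the control range in GB344 and GB359 only, and summed progenitor genes in every adjacent library. The part of these markers was not tested. *Lig4* had a log2 fold change of -0.40 ± 0.16 (adjusted p = 0.103), and it passed the second threshold under median-of-ratios scaling (-0.48) and quantile normalization (-0.58). Without adjacent GB344 and GB359 the log2 fold change of *Lig4* was -0.84. *Rif1* (-0.31, adjusted p = 0.173) likewise passed under median-of-ratios scaling (-0.40) and quantile normalization (-0.39).

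The *Rif1* to *Trp53bp1* ratio of adjacent cerebellum lay below that of the controls, although neither gene passed on its own (*Trp53bp1* 0.24, adjusted p = 0.120, and *Rif1* -0.31, adjusted p = 0.173). The ratio was 0.756, 0.827 and 0.633 in adjacent samples, all below the control range of 0.973 to 1.22. The log2 difference to controls was -0.56 (exact permutation p = 0.0119, adjusted over the 3 ratios p = 0.0357). Its difference between tumors and adjacent samples was -0.11 (exact permutation p = 0.6, with samples taken as independent). In GB344, GB359 and GB370 the tumor ratio was 0.687, 0.763 and 0.604, below the adjacent ratio of the same mouse each time. The pairing by mouse was not tested. The lowest adjacent value was that of GB370. Its summed proliferation genes (153 TPM) lay within the control range of 109 to 188 TPM. Its summed progenitor genes (84.03 TPM) lay above their control range of 38.4 to 46.9 TPM. The part of both marker lists in this ratio was not tested. The *Xrcc6* to *Xrcc5* ratio (-0.20, exact permutation p = 0.321) and the *Lig4* to *Xrcc4* ratio (-0.34, exact permutation p = 0.131) did not pass between adjacent and control samples. The ratio test of adjacent against control cerebella was added after the values were seen.

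Between the 2 control genotypes, 0 of the 9 genes were called by limma, beside 0.0128% higher and 0.0449% lower among 15575 tested genes. By the second threshold also 0 were called, against 0.0385% and 0.417% of all genes. Without adjustment 2 had p under 0.05, both lower in Brca2-mut;Trp53-WT, where 4.78% of all tested genes were higher and 15.3% lower. *Dclre1c* was 7.18, 5.94 and 8.37 TPM in Brca2-mut;Trp53-WT and 9.08, 9.62 and 9.29 TPM in Brca2-WT;Trp53-mut cerebella, without overlap (log2 fold change -0.35 ± 0.13, adjusted p = 0.206). *Trp53bp1* was 46.2, 40.7 and 45.1 TPM against 46.6, 50.9 and 54.0 TPM (log2 fold change -0.19 ± 0.08, adjusted p = 0.249). The remaining 7 genes had log2 fold changes from -0.27 to 0.11. Choroid plexus genes differed between these groups: the sum of 5 was 14.0 to 865 TPM in Brca2-mut;Trp53-WT and 3943 to 5155 TPM in Brca2-WT;Trp53-mut cerebella. The sum of 5 Purkinje cell markers also did not overlap, at 7710 to 9308 TPM in Brca2-mut;Trp53-WT and 5596 to 6114 TPM in Brca2-WT;Trp53-mut cerebella, and 0 of the 5 passed the second threshold by limma, though all 5 had an unadjusted p under 0.05 upward. The part of both marker lists in these values was not tested.

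A list of 10 further end-joining genes had 9 that were expressed enough to test, all but *Dntt*. In tumors against controls 2 of these passed the 2-fold rule upward and 1 downward, beside the same 14.4% and 21.5% of all tested genes. *Paxx*, a paralog of XRCC4 and XLF that binds Ku, was 27.8, 47.2 and 30.5 TPM in the 3 tumors, below the control range of 95.4 to 140 TPM (log2 fold change -1.68 ± 0.17, adjusted p = 6.8e-06). It was also called lower against adjacent cerebellum, at -2.12. The genes called higher were *Tdp1*, which removes topoisomerase 1 adducts from DNA (50.01 to 57.8 against 16.2 to 21.6 TPM, log2 fold change 1.48), and *Cyren*, a modulator of Ku (4.82 to 6.49 against 1.89 to 2.83 TPM, 1.07). Of the exon bases of *Cyren*, 50.8% lie opposite *Tmem140*, and without strand their reads cannot be told apart. *Tdp2*, which removes topoisomerase 2 adducts, passed the second threshold at 0.93. By that threshold 5 of the 9 were higher and 1 lower, beside 31.8% and 39.5%, and the median log2 fold change was 0.33.

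A list of 14 further genes of the 53BP1 axis had 5 members past the 2-fold rule upward and 1 downward in tumors against controls, beside 14.4% and 21.5% of all tested genes. By the second threshold 6 were higher and 3 lower, beside 31.8% and 39.5%. *Mad2l2*, which encodes the shieldin subunit REV7, was 171, 165 and 182 TPM in the 3 tumors, above the control range of 11.7 to 20.2 TPM, a log2 fold change of 3.47 ± 0.15 (adjusted p = 2.72e-08). In adjacent cerebellum it was 74.5, 46.5 and 17.6 TPM, the order of the proliferation genes. *Lig4* and *Rif1*, which were not higher in tumors, had that order there too, and the part of these markers was not tested. Other shieldin genes had their own values: *Shld1* passed the second threshold downward at -0.35, *Shld2* was at 0.07 and passed neither, and *Shld3* was not analysed here. These 2 were named after their values were seen. *H2afx*, the histone whose phosphorylation marks breaks, was 200 to 237 against 46.5 to 63.0 TPM (log2 fold change 2.05), and *Mdc1*, which binds that mark, 39.6 to 43.6 against 10.9 to 15.8 TPM (1.56). *Dynll1*, a 53BP1 partner, and *Ctc1*, of the CST complex, were called at 1.11 and 1.08. The gene called lower was *Pagr1a* (67.03 to 100.3 against 223 to 407 TPM, -1.89), but 98.7% of its exon bases are shared with another annotated gene on the same strand, so its level is uncertain. The median of the 14 was 0.16.

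**Figure D5:**
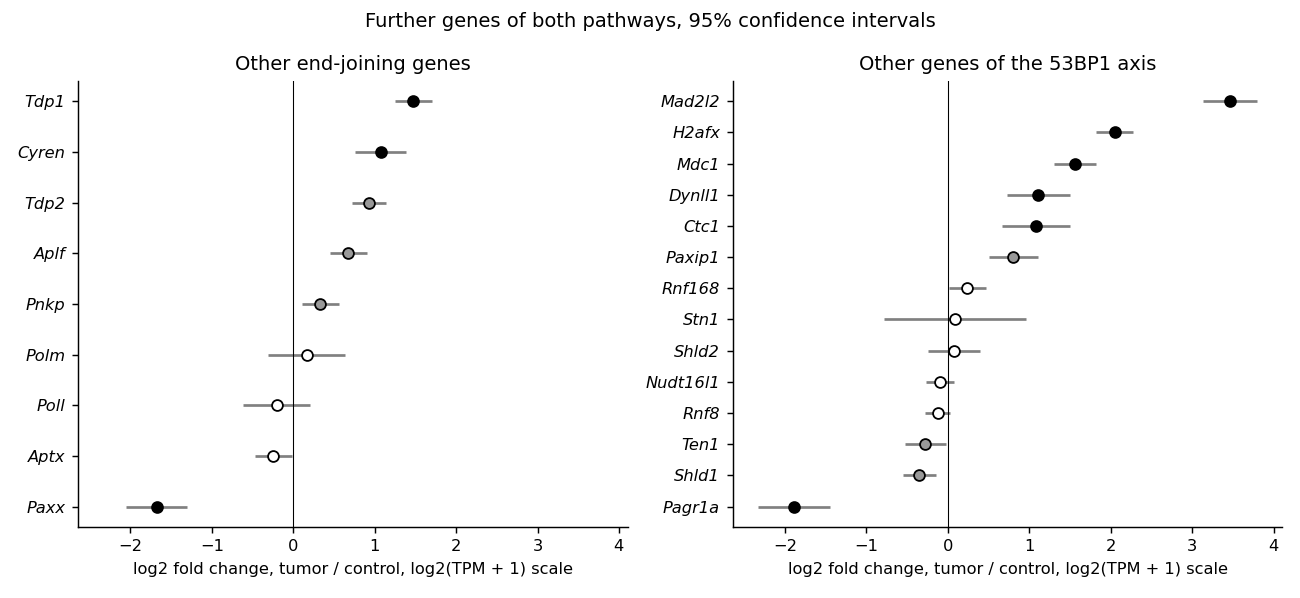
Log2 fold change of tumors against control cerebella (horizontal axes, log2(TPM + 1) scale) for 9 further end-joining genes and 14 further genes of the 53BP1 axis; bars are 95% confidence intervals, black points were called, grey points passed an adjusted p under 0.05 only and open points neither. *Mad2l2* is highest at 3.47, and *Paxx* (-1.68) and *Pagr1a* (-1.89) are the black points below 0.

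Against adjacent cerebellum, *Paxx* was the 1 further end-joining gene called, downward. Of the 14 axis genes, *H2afx* (1.49) and *Mad2l2* (2.10) passed the 2-fold rule upward and *Pagr1a* (-2.14) downward. Of all 15845 genes tested against adjacent cerebellum, 4.76% were called higher and 18% lower. With the mouse as a block, *Mad2l2* was no longer called (adjusted p = 0.0123) and *Dynll1* was (1.17, adjusted p = 0.00517). Homologous recombination genes, the competing pathway, had a median log2 fold change of 1.57 in tumors against controls. Of 13 such genes 9 passed the 2-fold rule upward by limma and 0 downward, beside 14.4% and 21.5% of all tested genes. By the second threshold 11 were higher and 1 lower, beside 31.8% and 39.5%. Without adjustment 11 had p under 0.05 upward and 1 downward, beside 32.9% and 40.6%.

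For each of the 9 genes, the genes of most similar profile were taken by Pearson's r of log2(TPM + 1) over the 12 samples, among 16012 genes with a mean of at least 1 TPM. The 12 points include 3 tumors. In *Xrcc5*, *Nhej1* and *Xrcc4* these stand apart from all other samples, and the values of r for those genes share that split. In the other members tumors overlap other samples. *Xrcc5* was nearest to *Rpl23a*, *Rps20* and *Exosc5* (r = 0.996, 0.995 and 0.995), *Xrcc4* to *Btbd10*, *Actr10* and *Kifap3* (0.986, 0.984 and 0.98), and *Nhej1* to *1810009A15Rik*, *Gusb* and *Batf3* (0.988, 0.961 and 0.961). *Xrcc6* was nearest to *Brat1* and *Lpar2* (0.97 and 0.965). For *Rif1* the nearest were *AI314180*, *Fam208a* and *Akap9* (0.954, 0.948 and 0.942), and for *Trp53bp1* they were *Ccl24*, *Zfp236* and *Prrc2c* (0.947, 0.94 and 0.94). The genes that passed neither threshold in tumors against controls had looser neighbors. These were *Tceanc2*, *Sec61a2* and *Ttf1* for *Dclre1c* (0.922, 0.922 and 0.915), *Fam199x*, *Med7* and *Zfp260* for *Lig4* (0.885, 0.883 and 0.88), and *Ctif*, *Gm28979* and *Gm16938* for *Prkdc* (0.854, 0.849 and 0.778). Among the 9 themselves the closest pair was *Xrcc5* and *Nhej1* (r = 0.909) and the most opposed *Xrcc5* and *Xrcc4* (r = -0.951). *Lig4* and its partner *Xrcc4* had r = -0.11 and *Trp53bp1* and *Rif1* had r = -0.06.

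In the GRCm38 annotation, 4 of the 9 genes share exon bases with a gene on the opposite strand. The shares are 15% of the exon bases of *Trp53bp1* (with *Tubgcp4*), 7.69% of *Xrcc6* (with *Desi1*), 3.83% of *Dclre1c* (with *Suv39h2*) and 2.66% of *Xrcc4* (with *Tmem167*). Whether quantification used strand is not given in the sources used here. The partner *Suv39h2* averaged 18.7 TPM in tumors against 3.404 TPM in controls, and *Desi1* 30.3 against 103 TPM.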

How the data were processed

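Total RNA from flash-frozen tissue was poly(A)-selected, sequenced, and quantified by the authors with Salmon 0.8.1 against mm10 transcripts. The authors deposited gene-level TPM for 24091 genes in 12 samples, and these TPM values sum to 999793 to 999876 per sample, so read depth is unknown and no counting interval can be given. Fold changes were computed here with limma 3.58.1 in R 4.3.3 (lmFit, eBayes with trend) on log2(TPM + 1), which understates changes of low genes, keeping a gene where 3 or more of the compared samples reached 1 TPM. P-values were adjusted by Benjamini-Hochberg over all genes tested, and each sentence's adjusted p comes from limma unless another test is named. The study's own differential test used counts, which were not used here. Ratios were tested by exact two-sided permutation (scipy 1.17.1) with all samples taken as independent, also where tumor and adjacent samples shared mice. The limma fits were tested on simulated data with independent samples, so the sharing of mice was not covered.

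The 9 members and all gene lists were chosen with earlier results of these data known. Named genes are the members, the genes of both further lists that were called in tumors against controls or are among the 3 highest of their list, and the 3 nearest profiles per member, of which 1 is not reported here. Tumor and adjacent samples came from the same 3 mice: deviations from the group means correlated within a mouse (r = 0.249, 0.176 and 0.152 over 15845 genes), so the mouse was a block in an alternative fit. Alternatives changed the pseudocount (0.1 and 0.01), the filter, the scaling, the variance model, the control genotype and the samples. Leaving out adjacent GB344 and GB359 together, the block with the second threshold, and the ratio test of adjacent against control cerebella were added after seeing the data. Promoters are RefSeq windows of 250 bases, found for 7 of 9 members.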

Additional observations from a re-analysis of the deposited data

How the results depend on the processing

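*Xrcc5* kept its direction in both tumor comparisons under every alternative run. Against control cerebella 2 members instead of 1 were called higher with a pseudocount of 0.1 or 0.01, median-of-ratios scaling or quantile normalization. All genes called higher numbered 2341 of 16241 in the main fit and 2541 and 2529 with these pseudocounts. They numbered 2650 of 16252 with median-of-ratios scaling and 2824 of 16241 under quantile normalization. At an adjusted p under 0.05 with no minimum fold, 4 members were higher and 2 lower, beside 5165 and 6408 of 16241 genes. Leaving out 1 sample gave 1 to 2 members called higher. The count was 2 without tumor GB370, beside 2352 of 16241 genes. Against adjacent cerebellum 2 members were called higher under quantile normalization, beside 1648 of 15845 genes, where the main fit called 755. By the second threshold 2 were higher and 1 lower with or without the replicate block. All genes then numbered 2939 and 5109 with the block and 2870 and 5110 without it. With 1 sample left out 0 to 1 members were called higher. The count was 0 without tumor GB359 or tumor GB370, beside 275 and 189 of 15845 genes. The replicate block left 1 member called higher, beside 701 of 15845 genes, and changed no other member's call. For adjacent against control cerebella 1 member was higher by the second threshold, beside 1627 of 16091 genes. With adjacent cerebellum as the control, the log2 ratio differences were -1.16 (Ku), 1.07 (*Lig4* to *Xrcc4*) and -0.11 (*Rif1* to *Trp53bp1*). None of them could pass 0.05, since the smallest exact permutation p of 3 against 3 samples is 0.1. Tumor and adjacent samples did not overlap in the first 2 ratios and overlapped in the last. Against controls with 1 sample left out, the log2 ratio differences were -1.46 to -1.23, 0.52 to 0.94 and -0.75 to -0.58.

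Reversed signs occurred in values that passed no threshold, and the cause was not tested. Under median-of-ratios, quantile and Brca2-mut;Trp53-WT controls alone, tumors against controls gave 0.10, 0.17 and 0.027 for *Prkdc* and 0.0998, 0.20 and 0.0054 for *Lig4*. With 1 sample left out they ranged from -0.069 to 0.073 and from -0.21 to 0.19. Under both scalings, tumors against adjacent cerebellum gave 0.00076 and 0.12 for *Prkdc*, 0.21 and 0.20 for *Trp53bp1* and 0.10 and 0.11 for *Rif1*. Without adjacent GB344 and GB359, *Trp53bp1* was at 0.059 and *Rif1* at 0.16. With 1 sample left out *Trp53bp1* ranged from -0.065 to 0.093, *Rif1* from -0.24 to 0.016 and *Dclre1c* from -0.13 to 0.41. For adjacent against control cerebella *Nhej1* was at -0.041 (quantile), -0.22 (without both libraries) and -0.021 to 0.31 (1 left out), and *Xrcc5* at -0.013 without both. Between control genotypes the scalings gave 0.044 and 0.035 for *Prkdc* and 0.088 and 0.11 for *Lig4*. With 1 left out *Prkdc* ranged from -0.21 to 0.12, *Lig4* from -0.050 to 0.022, *Xrcc4* from -0.032 to 0.11 and *Nhej1* from -0.016 to 0.13. The median of all genes in tumors against controls moved from -0.11 to -0.01 and 0.06 under the scalings.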
